A study of Ovis aries with 18 samples.

Results

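Plasma carries small amounts of microRNAs (miRNAs) whose main sources are solid tissues. The 6 described here are oar-miR-133, known from muscle, oar-miR-148a and oar-miR-194, known from liver, and oar-miR-200a, oar-miR-200b and oar-miR-200c, known from epithelium, written below without the sheep prefix oar. They were picked by name and known tissue, with earlier results of these data known, and are 6 of the 364 features counted, 107 of which carry a miRNA name. All ewes were Polish Longwool, ovariectomized and fitted with estradiol implants, whichever diet they received, and 12 of them were split at random between a standard diet (CTRL, 6 ewes) and a diet rich in fat (OBESE, 6 ewes). Plasma from weeks 7, 10 and 14 of the feeding protocol was sequenced for small RNA, and each of the 6 combinations of diet and week is represented by 3 libraries. The sources used here give neither the age of the ewes, nor whether a library is a single ewe or a pool, nor whether a replicate number marks the same ewe at each week. The p-values below therefore set differences only against the variation between these libraries, which may be in part technical. Those averaged over weeks are too small if libraries share ewes.

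miRNAs guide the silencing of messenger RNAs and leave cells inside vesicles, bound to proteins or through cell damage, so a tissue's miRNAs can be read in blood. miR-133 is made with miR-1 in skeletal and cardiac muscle, where it governs the growth and differentiation of muscle cells. miR-148a is abundant in hepatocytes and lowers the LDL receptor, and miR-194 is produced with miR-192 in liver and gut epithelium. The miR-200 family holds cells in the epithelial state by repressing ZEB1 and ZEB2. Within it miR-200b and miR-200c share a seed, the stretch that pairs with targets, while miR-200a belongs with miR-141 to the other seed group.

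Each of the 6 matched a miRNA gene in RefSeq's table for the assembly ARS-UI_Ramb_v3.0. MIR200A and MIR200B are direct neighbours there, between TTLL10 and C12H1orf159, and MIR200C lies apart between PHB2 and PTPN6. MIR194 lies within the span of EHD1. Because the build behind the counts is not given, no coordinates are printed.

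Library totals ranged from 388574 to 1269829 counts (median 686025). TMM scaling factors ranged from 0.653 to 1.19, the lowest being those of CTRL week 7 replicate 1 (0.653) and CTRL week 14 replicate 3 (0.718). Levels are counts per 1000000 (CPM) after TMM scaling. Each read spans a whole miRNA, so levels were not divided by length, although miRNAs differ in how well they enter a library. Tissue origin could not be checked from other markers. Of 8 listed muscle miRNAs 1 had a named feature (miR-133 itself), of 5 liver miRNAs 2 (miR-148a and miR-194) and of 8 epithelial miRNAs 3 (miR-200a, miR-200b and miR-200c). miR-1, miR-206, miR-122, miR-192, miR-141 and miR-429 were among the listed miRNAs without a named feature. In plasma, fewer cells releasing a miRNA and less release per cell cannot be told apart.

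The 6 miRNAs together took between 0.0271% and 0.0887% of a library's counts. miR-200a was the most abundant, at 234 ± 66.3 CPM over all libraries (SD, n = 18), followed by miR-200c at 142 ± 34.9 and miR-194 at 89.0 ± 32.5 CPM. miR-148a stood at 23.5 ± 12.0, miR-133 at 22.7 ± 28.5 and miR-200b at 6.14 ± 4.07 CPM. The levels of miR-148a and miR-133 differed by less than their spread, while miR-200a exceeded miR-194 in 18 of 18 libraries and miR-200c in 16 of 18. By summed count miR-200a ranked 75 and miR-200b 177 among the 364 features.

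Detection was read against a floor of 3 counts, which corresponded to between 2.22 and 7.15 CPM depending on the library. miR-194, miR-200a and miR-200c lay above it in 18 of 18 libraries, with lowest counts of 17, 98 and 46. miR-133 reached the floor in 17 of 18 libraries and missed it only in CTRL week 10 replicate 1, the smallest library, with 1 count. miR-148a also reached it in 17 of 18, and had 0 counts in CTRL week 7 replicate 1, where the 3 counts taken as the limit of a count of 0 correspond to 6.95 CPM and the exact 95% binomial interval reaches 8.54 CPM. miR-200b reached 3 counts in 12 of 18 libraries, had 1 or 2 counts in 4 and 0 in 2 (CTRL week 7 replicate 3 and OBESE week 14 replicate 2, with limits of 6.95 and 4.87 CPM by 3 counts and 8.55 and 5.99 CPM by the exact interval). Intervals and floors cover counting error only.

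**Figure D1:**
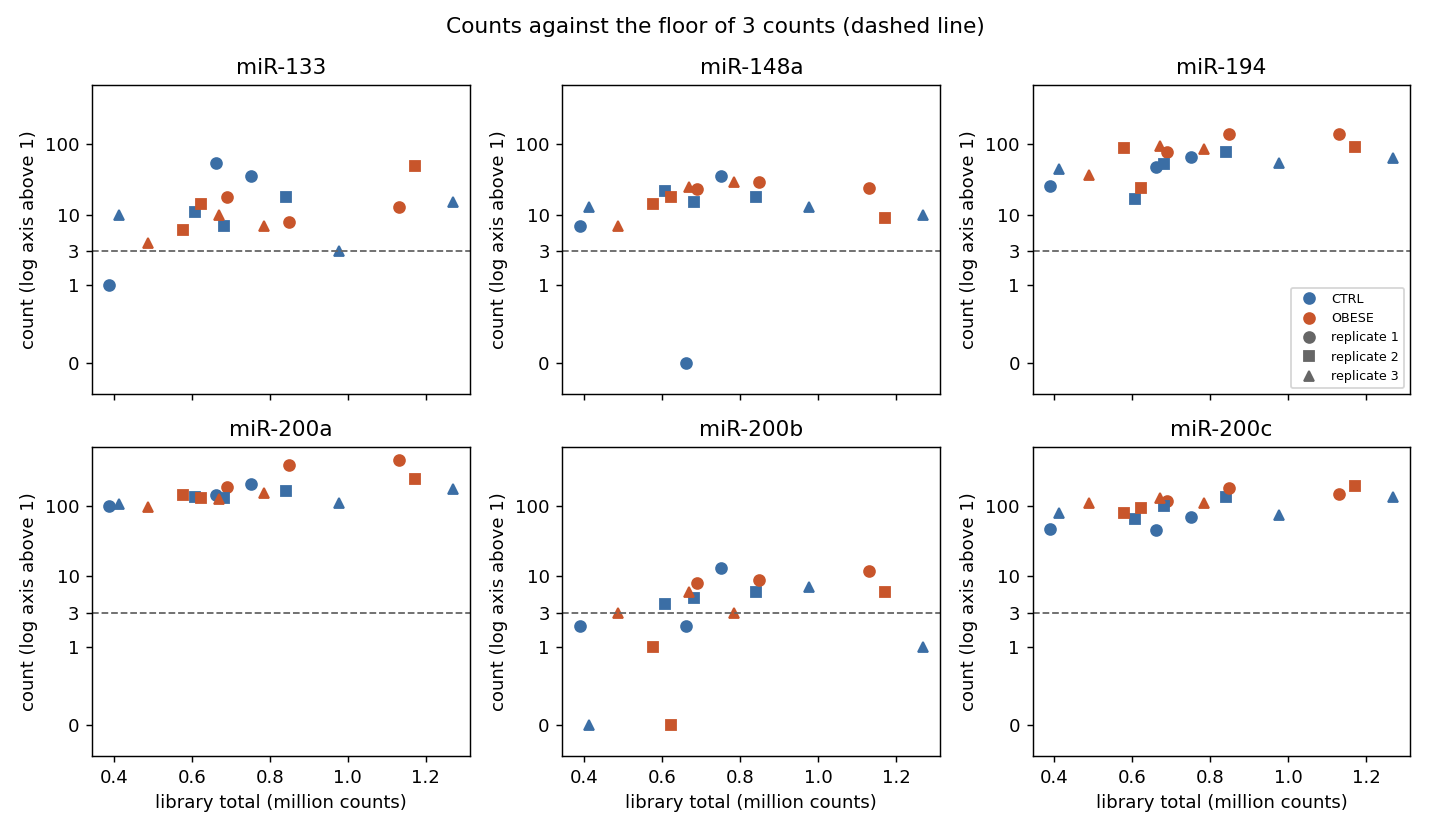
Count of each miRNA (vertical axis, logarithmic above 1) against the library's total count (horizontal axis), 1 point per library, with diet by colour, replicate number by symbol and the floor of 3 counts as a dashed line. miR-194, miR-200a and miR-200c lie above the floor in all 18 libraries, and miR-200b lies at or above it in 12.

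miR-200b had 40 counts in all CTRL and 48 in all OBESE libraries together. It reached the floor in 5 of 9 CTRL and 7 of 9 OBESE libraries. Scaling counts down to the smallest library total, which can only lower such numbers, left 1 of 9 and 4 of 9. The deepest library, CTRL week 10 replicate 3, held 1 count of miR-200b. The filter on low counts (filterByExpr of edgeR) passed 5 of the 6 miRNAs, leaving out miR-200b, whose differences were taken from the fit without that filter.

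miR-133, the muscle miRNA, varied most from library to library. At week 7 its CTRL libraries stood at 127, 19.2 and 23.2 CPM (55, 11 and 10 counts) and its OBESE libraries at 23.7, 9.10 and 10.0 CPM (18, 6 and 7 counts), each in the order of replicates 1, 2 and 3. At week 10 the CTRL libraries held 2.38, 10.6 and 11.9 CPM (1, 7 and 15 counts) and the OBESE libraries 9.64, 41.3 and 13.5 CPM (13, 49 and 10 counts). At week 14 they held 43.1, 20.6 and 4.27 CPM in CTRL (36, 18 and 3 counts) and 8.28, 22.7 and 7.68 CPM in OBESE (8, 14 and 4 counts). Single libraries stood out in a different group at each week, and the diets overlapped at every week.

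The highest miR-133 level, 127 CPM in CTRL week 7 replicate 1 (95% exact binomial interval 96.0 to 166), came with the lowest miR-148a level, 0 counts, in the same library. That library also had the lowest TMM factor, and before TMM scaling its miR-133 level was 83.1 CPM. The part of these library properties in the miR-133 value was not tested. The coefficient of variation of miR-133 over 18 libraries was 126%, and only 3 of the 168 tested features had a larger one, against a median of 37.1%. Counting error at its mean count was 25.1%. For miR-148a these values were 51.3% and 24.0%, for miR-194 36.5% and 12.1%, for miR-200a 28.4% and 7.49%, and for miR-200c 24.6% and 9.68%. For miR-200b they were 66.3% and 45.2%. By diet the coefficient of variation of miR-133 was 133% in CTRL, which includes CTRL week 7 replicate 1, and 69.1% in OBESE. For miR-200b it was 74.1% in CTRL and 60.7% in OBESE.

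Averaged over weeks, miR-133 stood at 16.2 ± 11.2 CPM under OBESE against 29.2 ± 38.8 CPM under CTRL (SD, n = 9 libraries each). The CTRL mean was 16.9 ± 13.0 CPM without CTRL week 7 replicate 1. The fitted log2 fold change of OBESE against CTRL was -0.51 (SE 0.515, edgeR adjusted p = 0.663), and -0.07 without that library. Its sign differed between weeks, at -1.95 (SE 0.883) at week 7, 1.26 (SE 0.903) at week 10 and -0.83 (SE 0.891) at week 14. The week 7 value had an unadjusted p of 0.0407 and an edgeR adjusted p of 0.759, and was -0.57 without CTRL week 7 replicate 1. The week 10 value was 0.40 without OBESE week 10 replicate 2, and the week 14 value was -0.02 without CTRL week 14 replicate 1. These were the left-out libraries that brought each weekly difference in miR-133 closest to 0. Leaving out other libraries took it as far as -2.64 at week 7, 1.78 at week 10 and -1.62 at week 14.

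**Figure D2:**
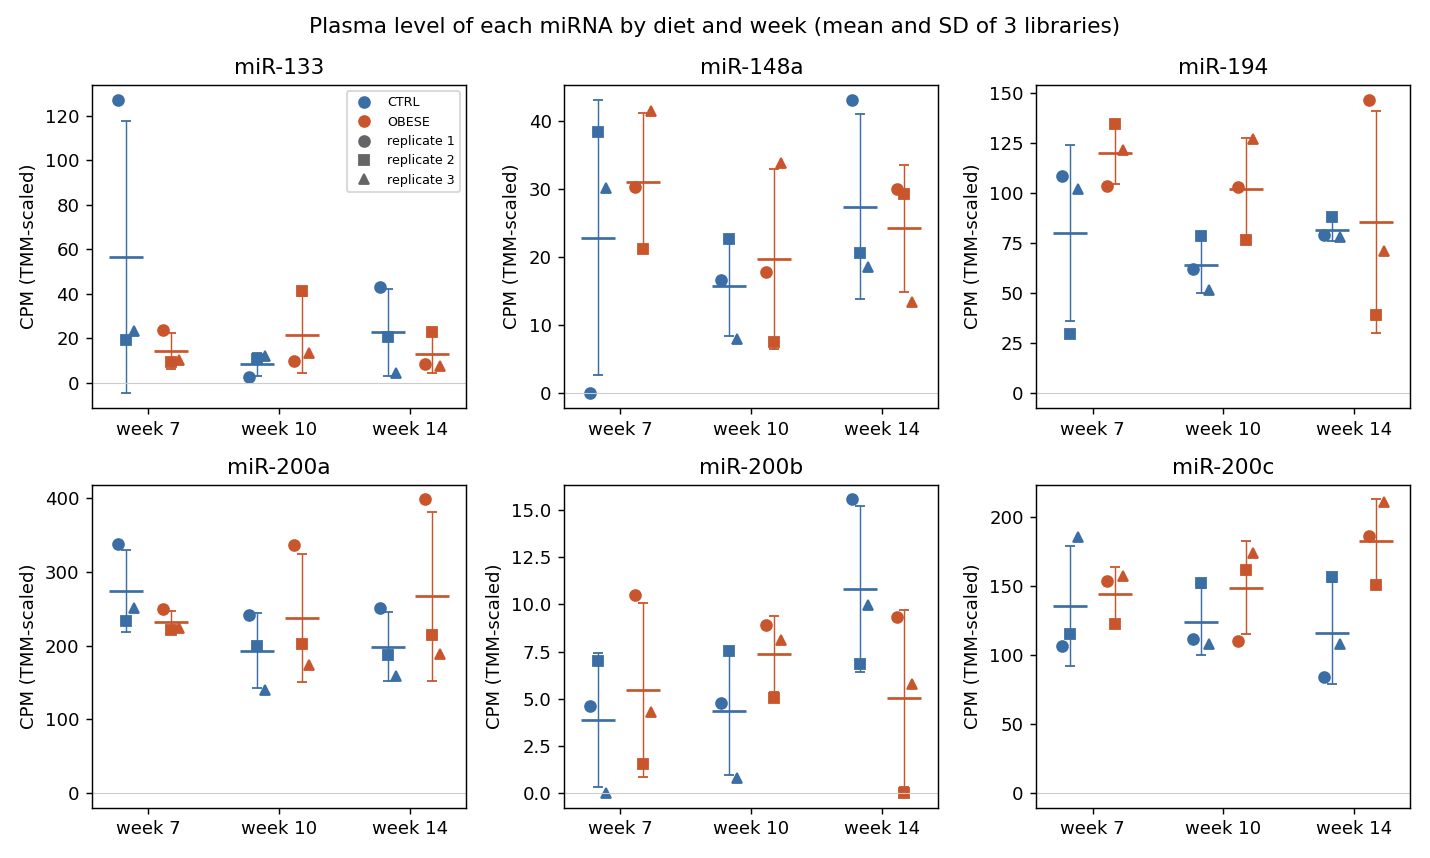
TMM-scaled CPM of the 6 miRNAs (vertical axes, 1 panel each) by week (horizontal axes), with 1 point per library, diet by colour and replicate number by symbol. Horizontal bars and whiskers are the mean and SD of 3 libraries; CTRL and OBESE libraries overlap in every panel and week, and replicate 1 (circles) is the highest miR-200a library in all 6 groups.

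Among the liver miRNAs, miR-148a, a regulator of cholesterol uptake, had between 0 and 36 counts in a library. At week 7 it stood at 0, 38.4 and 30.1 CPM in CTRL and 30.2, 21.2 and 41.5 CPM in OBESE libraries. At week 10 the values were 16.7, 22.6 and 7.91 CPM in CTRL and 17.8, 7.59 and 33.8 CPM in OBESE, and at week 14 they were 43.1, 20.6 and 18.5 CPM and 30.0, 29.2 and 13.4 CPM. No week separated the diets. Over all weeks the mean was 22.0 ± 13.7 CPM under CTRL and 25.0 ± 10.7 CPM under OBESE (SD, n = 9 each). The fitted difference was 0.20 on the log2 scale (SE 0.456, adjusted p = 0.891 by edgeR). Without CTRL week 7 replicate 1, where no miR-148a was counted, it was -0.06. The 95% interval of the fold ran from 0.588 to 2.23.

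miR-194, which is processed with miR-192 in liver and gut, was higher in most OBESE libraries at weeks 7 and 10. At week 7 the CTRL libraries stood at 109, 29.6 and 102 CPM and the OBESE libraries at 104, 135 and 122 CPM. At week 10 CTRL held 62.0, 78.4 and 51.4 CPM and OBESE held 103, 76.8 and 127 CPM. In each of these weeks the ranges overlapped through the lowest OBESE library. At week 14 the OBESE libraries spread on both sides of CTRL, at 147, 39.0 and 71.0 CPM against 79.0, 88.1 and 78.3 CPM.

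The mean level of miR-194 over all weeks was 103 ± 34.8 CPM under OBESE against 75.3 ± 24.7 CPM under CTRL (SD, n = 9 libraries each). The log2 fold change was 0.45 (SE 0.265, 95% interval -0.11 to 1.01), a fold of 1.37, and did not pass (edgeR unadjusted p = 0.107, adjusted p = 0.487). Weekly log2 fold changes were 0.59 (SE 0.462), 0.68 (SE 0.459) and 0.08 (SE 0.455), and the week 7 value was 0.18 without CTRL week 7 replicate 2. An exact permutation of diets within weeks gave p = 0.0822 for a difference of 27.4 CPM, and 0.599 when adjusted over the 364 features. Of these features 30 (8.24%) had an unadjusted permutation p under 0.05. Leaving out OBESE week 14 replicate 1, the highest library, lowered the averaged difference to 0.23 and placed the week 14 value at -0.59.

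The epithelial miRNAs were led by miR-200a, a repressor of ZEB1 and ZEB2. At week 7 it stood at 338, 234 and 250 CPM in CTRL and 250, 221 and 223 CPM in OBESE libraries. At week 10 it stood at 241, 199 and 139 CPM in CTRL and 337, 202 and 173 CPM in OBESE, and at week 14 at 250, 188 and 158 CPM in CTRL and 398, 214 and 188 CPM in OBESE. In all 6 groups the highest library was replicate 1. Of the 168 tested features 3 (1.79%) had their highest library under the same number in all 6 groups, and miR-200a was the 1 among them with number 1. Without TMM scaling, replicate 1 was highest in miR-200a in 5 of 6 groups. This pattern was noticed in the values, and the meaning of a replicate number is not given.

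The diet difference in miR-200a was small beside that spread. Its mean was 245 ± 74.3 CPM under OBESE against 222 ± 59.4 CPM under CTRL (SD, n = 9 libraries each). The log2 difference was 0.16 (SE 0.19, adjusted p = 0.708 by edgeR). The weekly values were -0.24 (SE 0.33), 0.31 (SE 0.33) and 0.43 (SE 0.329) at weeks 7, 10 and 14. The week 7 value was 0.05 without TMM scaling. Without OBESE week 10 replicate 1 the week 10 value was 0.03, and without OBESE week 14 replicate 1 the week 14 value was -0.00373. The 95% interval of the averaged fold ran from 0.849 to 1.48.

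miR-200c, the seed partner of miR-200b, had a higher OBESE mean at every week with all libraries included. At week 7 it stood at 107, 115 and 185 CPM in CTRL and 154, 123 and 157 CPM in OBESE libraries. At week 10 it stood at 112, 152 and 108 CPM in CTRL and 110, 162 and 174 CPM in OBESE. At week 14 it stood at 83.8, 157 and 108 CPM in CTRL and 186, 151 and 211 CPM in OBESE, where the groups overlapped only through CTRL replicate 2 and OBESE replicate 2. The lowest of the 18 libraries was CTRL week 14 replicate 1 and the highest was OBESE week 14 replicate 3.

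Over all weeks miR-200c averaged 159 ± 30.5 CPM under OBESE against 125 ± 32.1 CPM under CTRL (SD, n = 9 libraries each). The log2 fold change was 0.33 (SE 0.177, 95% interval -0.04 to 0.71), a fold of 1.26, with an unadjusted p of 0.0756 and an edgeR adjusted p of 0.465. The exact permutation within weeks gave p = 0.053 for a difference of 33.4 CPM, and 0.551 adjusted over all features. This p is likewise too small if libraries of different weeks share ewes. By the same permutation 30 of 364 features (8.24%) had an unadjusted p under 0.05. In the edgeR fit to counts summed over weeks by replicate number the adjusted p of miR-200c was 0.744. Such sums deal with shared ewes only if a replicate number marks a ewe, which is not given. The summed fit called 0 of 204 features and gave 14 (6.86%) with an unadjusted p under 0.05, of which 0 were members. The weekly log2 fold changes were 0.09 (SE 0.308), 0.26 (SE 0.306) and 0.65 (SE 0.307). The week 7 value turned to -0.082 without CTRL week 7 replicate 1, where the CTRL mean was 150 CPM against 145 CPM in OBESE, and was also below 0 without CTRL week 7 replicate 2 (-0.020) or OBESE week 7 replicate 1 (-0.046). The week 14 value had an unadjusted p of 0.0486 and an edgeR adjusted p of 0.577, so it did not pass. Its difference from the week 7 value was 0.56 (SE 0.434, edgeR adjusted p = 0.906), so a change of the diet difference with time was not shown.

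miR-200b, the neighbour of miR-200a, had between 0 and 13 counts in a library. CTRL libraries held 2, 4 and 0 counts at week 7, 2, 5 and 1 at week 10 and 13, 6 and 7 at week 14. OBESE libraries held 8, 1 and 3 counts at week 7, 12, 6 and 6 at week 10 and 9, 0 and 3 at week 14. The CTRL libraries of week 14 were all above the floor, while at weeks 7 and 10 only 1 of 3 was. These numbers depend on library depth. Scaled down to the smallest library total, 1 of 3 CTRL libraries reached the floor at week 14 and 0 of 3 at each of weeks 7 and 10. The change of miR-200b from week 7 to 14 in CTRL did not pass (edgeR adjusted p = 0.98, without the filter). In the fit without a filter the averaged log2 fold change was 0.12 (SE 0.654, edgeR adjusted p = 1.00 over 364 features), and the 95% interval of the fold ran from 0.434 to 2.71.

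Although MIR200A and MIR200B are neighbouring genes, their plasma counts differed widely. Over all libraries miR-200a had 36.5 times the counts of miR-200b (95% exact binomial interval 29.5 to 45.6), at 3210 against 88 counts. The ratio was 32.0 (23.4 to 45.0) in CTRL and 40.2 (30.2 to 54.7) in OBESE libraries, intervals that overlap. By group it was 64.7 (29.4 to 177), 51.1 (25.7 to 119) and 18.6 (12.5 to 28.8) in CTRL at weeks 7, 10 and 14, and 41.0 (23.3 to 79.9), 34.2 (22.9 to 53.8) and 51.2 (29.1 to 99.7) in OBESE. The CTRL week 14 interval lay below those of CTRL week 7 and OBESE week 14. These intervals leave out the spread between libraries, and no test over libraries was made of this ratio. How reads matching several miRNAs were divided, which bears on miR-200b and its seed partner miR-200c, is not given, and its part in the ratio was not tested.

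The ratio of miR-200a to miR-200c within a library does not depend on the scaling between libraries. Its mean was 1.88 ± 0.758 under CTRL against 1.62 ± 0.66 under OBESE (SD, n = 9 libraries each), and the diets overlapped. It ran from 0.891 in OBESE week 14 replicate 3 to 3.17 in CTRL week 7 replicate 1. Replicate 1 had the highest ratio in 5 of 6 groups, at 3.17, 2.15 and 2.99 in CTRL and 3.05 and 2.14 in OBESE at weeks 10 and 14. OBESE week 7 was the exception, with 1.62 in replicate 1 and 1.80 in replicate 2. This is not separate from the pattern in miR-200a, since the same counts enter both. After TMM scaling replicate 1 was highest in 6 of 6 groups for miR-200a and in 0 for miR-200c. How often ratios of other features do so was not examined. Pearson's r between the pair was -0.04 over 18 libraries on log2 CPM.

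**Figure D3:**
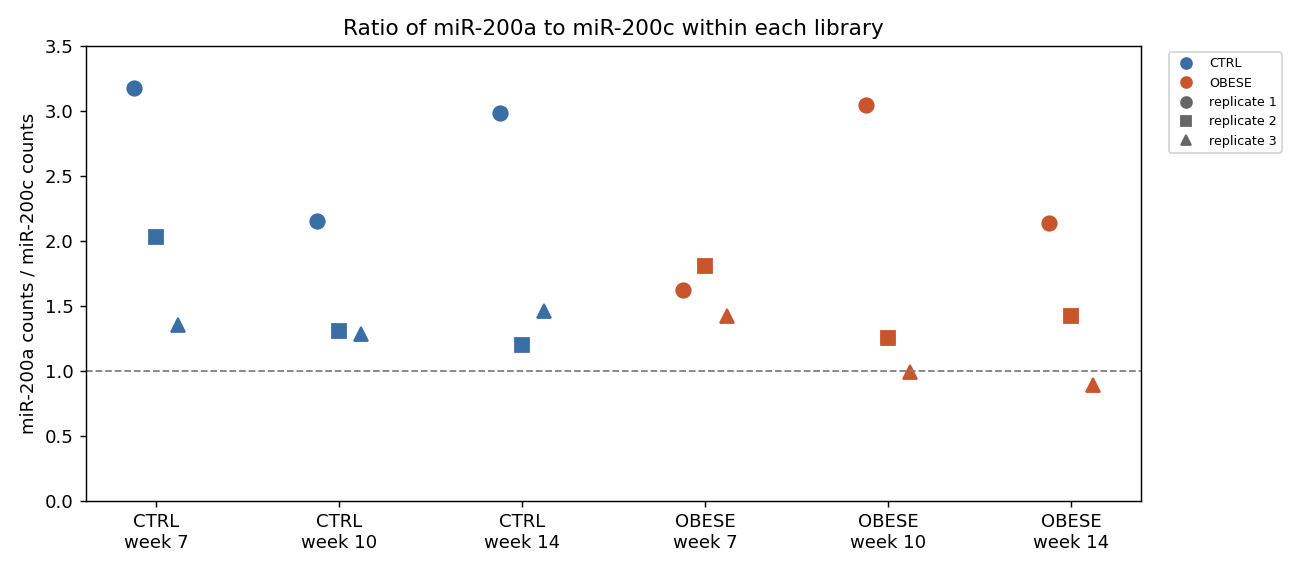
Ratio of miR-200a to miR-200c counts in each library (vertical axis) by group of diet and week (horizontal axis), with diet by colour, replicate number by symbol and a dashed line at equal counts. Replicate 1 (circles) lies highest in 5 of 6 groups, and 16 of 18 libraries lie above 1.

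Across the diet comparisons, none of the tested miRNAs passed an adjusted p of 0.05. For the difference averaged over weeks, edgeR called 0 of 168 features (0%) and gave 19 (11.3%) with an unadjusted p under 0.05, of which 0 were among the 5 tested members. Without TMM scaling 21 of 168 features (12.5%) were under 0.05. Among them were 2 members, miR-194 (log2 fold change 0.65, unadjusted p = 0.035) and miR-200c (0.49, unadjusted p = 0.0361). With 1 library left out, 1 member was under 0.05 in 3 of 18 fits, miR-200c in 2 and miR-194 in 1, and none passed adjustment. In these fits 15.1% and 13.3% (miR-200c) and 17% (miR-194) of all tested features were under 0.05. DESeq2, run on all 364 features, called 3 and gave 27 (7.42%) at an unadjusted p under 0.05. limma-voom, run on the 168, called 0 and gave 20 (11.9%), and both gave 0 members. The 5 tested members had 4 positive and 1 negative log2 fold changes with a median of 0.20, beside a median of -0.00218 over the 168 features, of which 48.8% were positive. Without TMM scaling the median over all features moved to 0.16, and to 0.25, 0.09 and 0.15 at weeks 7, 10 and 14, and each direction is to be read against that median.

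At week 7 the count called by edgeR was 0 of 168 (0%), with 9 (5.36%) at an unadjusted p under 0.05 and 1 of 5 members among them, miR-133. At week 10 it was 0 (0%), with 11 (6.55%) and 0 members. At week 14 it was 0 (0%), with 13 (7.74%) and 1 member, miR-200c. DESeq2 and limma-voom also called 0 at each of these weeks. At an unadjusted p under 0.05 DESeq2 gave 15, 16 and 15 of 364 features (4.12%, 4.4% and 4.12%) and limma-voom 10, 13 and 13 of 168 (5.95%, 7.74% and 7.74%). At an unadjusted p under 0.05 DESeq2 gave miR-133 at week 7 and no member at week 14, and limma-voom gave no member at week 7 and miR-200c at week 14. CTRL and OBESE libraries did not overlap in 0 of 5 members at any week, against 8.93%, 13.1% and 9.52% of the 168 features at weeks 7, 10 and 14.

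**Figure D4:**
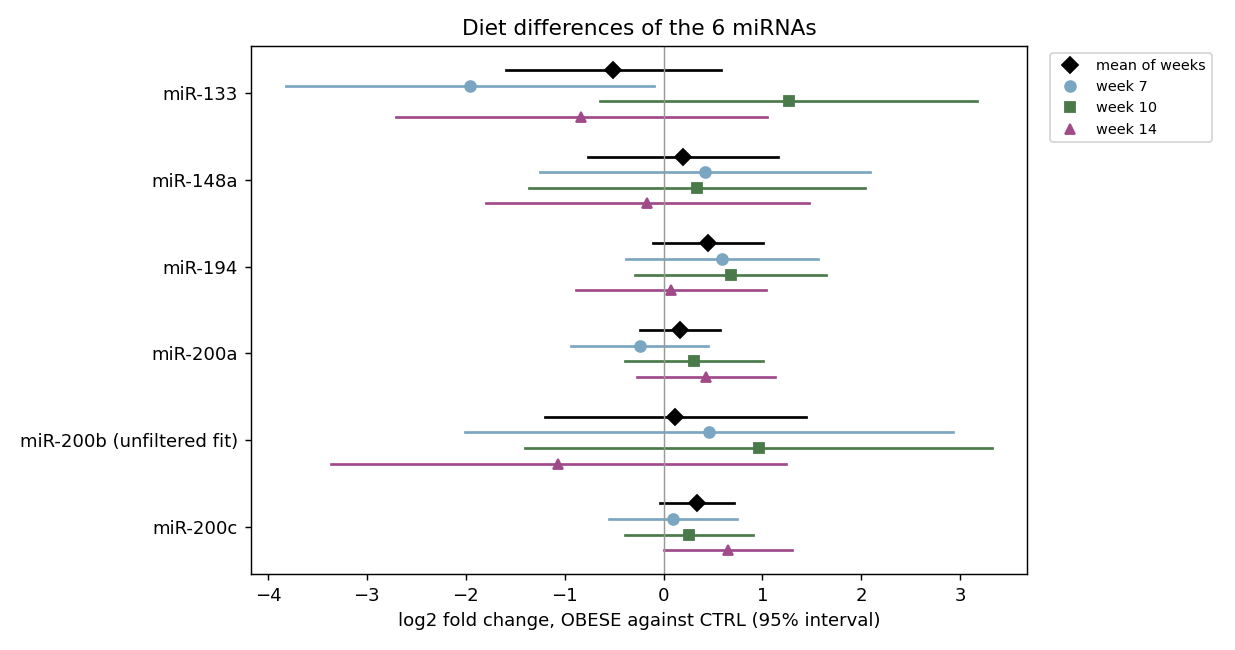
Fitted log2 fold change of OBESE against CTRL (horizontal axis) with its 95% interval for each miRNA (vertical axis), averaged over weeks and at weeks 7, 10 and 14, by colour and symbol. Intervals are narrowest for miR-200c and miR-200a and widest for miR-133 and miR-200b, and the averaged interval includes 0 for each of the 6. The weekly intervals of miR-133 at week 7 and miR-200c at week 14 leave out 0. No interval is adjusted for the number of tests.

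Over time, 0 of 168 features (0%) were called in any of the comparisons of weeks 10 and 14 with week 7 within a diet, by edgeR, DESeq2 or limma-voom. In CTRL, miR-133 fell outside its week 7 range at week 10, with 2.38 to 11.9 CPM against 19.2 to 127 CPM. It was the 1 of 5 members whose groups did not overlap there, against 4.76% of all features. Its log2 fold change was -2.63 (SE 0.92), with an unadjusted p of 0.0107 and an edgeR adjusted p of 0.947, and -1.18 without CTRL week 7 replicate 1. All 3 tools gave 0 calls there, and at an unadjusted p under 0.05 edgeR gave 3 of 168 features (1.79%), DESeq2 5 of 364 (1.37%) and limma-voom 3 of 168 (1.79%), of which miR-133 was 1 for edgeR and DESeq2. With diet by replicate number as a block, since these numbers were taken as pairs, edgeR again called 0 and gave 9 of 168 features (5.36%) under 0.05, with 2 members among them. They were miR-133 (-1.95, unadjusted p = 0.0334) and miR-200a (-0.52, unadjusted p = 0.0408), and neither passed adjustment.

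In CTRL at week 14 edgeR gave 6 features (3.57%) with an unadjusted p under 0.05, and in OBESE it gave 7 (4.17%) at week 10 and 13 (7.74%) at week 14, with 0 members in each. DESeq2 gave 7, 8 and 15 of 364 features (1.92%, 2.20% and 4.12%) and limma-voom 5, 6 and 12 of 168 (2.98%, 3.57% and 7.14%), with 0 members. With the block the OBESE week 14 comparison gave 22 of 168 features (13.1%), also with 0 members and 0 calls. For CTRL week 14 and OBESE week 10, not taken as pairs, the same block gave 8 (4.76%) and 10 (5.95%), with 0 members and 0 calls. In OBESE libraries miR-194 had a mean of 120 ± 15.6, 102 ± 25.2 and 85.6 ± 55.4 CPM at weeks 7, 10 and 14 (SD, n = 3 each). Its log2 fold change from week 7 to 14 was -0.47 (SE 0.455, edgeR adjusted p = 0.837). Without OBESE week 14 replicate 1 the week 14 mean was 55.0 CPM and the log2 fold change -1.15, which did not pass either. miR-200c had means of 145 ± 19.0, 149 ± 33.9 and 183 ± 30.2 CPM in OBESE and 136 ± 43.3, 124 ± 24.4 and 116 ± 37.1 CPM in CTRL libraries. From week 7 to 14 it had log2 fold changes of 0.34 (SE 0.305) in OBESE and -0.22 (SE 0.309) in CTRL, and neither passed (edgeR adjusted p = 0.815 and 0.977). For the interaction of diet with week 14 against week 7, edgeR gave 0 calls (0%) and 10 features (5.95%) at an unadjusted p under 0.05, with 0 members, where DESeq2 gave 0 calls and 12 of 364 features (3.30%) and limma-voom 0 calls and 9 of 168 (5.36%).

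Ordered by mean, the groups of every member overlapped with their neighbours in the order. miR-194 was highest in OBESE week 7 and lowest in CTRL week 10 (63.9 ± 13.6 CPM). miR-200c was highest in OBESE week 14 and lowest in CTRL week 14, and for both miRNAs the 3 OBESE groups ranked above the 3 CTRL groups. That order rested on single libraries. Without OBESE week 14 replicate 1 the miR-194 mean of its group (55.0 CPM) was below every CTRL group, and without CTRL week 7 replicate 1 the miR-200c mean of its group (150 CPM) was above OBESE weeks 7 and 10. miR-200a was highest in CTRL week 7 (274 ± 56.2 CPM) and lowest in CTRL week 10 (193 ± 51.1 CPM), and miR-148a ran from 31.0 ± 10.1 CPM in OBESE week 7 to 15.7 ± 7.40 CPM in CTRL week 10. miR-133 ran from 56.6 ± 61.4 CPM in CTRL week 7 to 8.27 ± 5.14 CPM in CTRL week 10 (SD, n = 3 each). Without CTRL week 7 replicate 1 the CTRL week 7 mean of miR-133 was 21.2 CPM, below CTRL week 14 (22.7 CPM).

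Over the 15 pairs of members, Pearson's r on log2 CPM over 18 libraries lay between -0.41 (miR-133 and miR-148a) and 0.37 (miR-194 and miR-200a), a description of points that share library scaling and depth. For the first of these pairs Spearman's rho was 0.15. Among the 168 tested features, those most like miR-200a were unnamed miRNAs 31, 33 and 56 (r = 0.77, 0.72 and 0.70), which carry a running number and no sequence in the files. Those most like miR-200c were unnamed miRNAs 71 and 57 and miR-409-3p (r = 0.72, 0.72 and 0.70).

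Unnamed miRNA 33 was also the feature most like miR-194 (r = 0.60), ahead of unnamed miRNAs 39 and 37 (0.56 and 0.53). For miR-148a they were unnamed miRNAs 51, 107 and 47 (0.65, 0.57 and 0.55), and for miR-133 unnamed miRNAs 245 and 68 and miR-30c (0.62, 0.54 and 0.49). With group means subtracted, r for the features in the same order was 0.82, 0.76 and 0.65 for miR-200a and 0.63, 0.61 and 0.58 for miR-200c. It was 0.54, 0.53 and 0.47 for miR-194, 0.64, 0.65 and 0.52 for miR-148a, and 0.63, 0.30 and 0.58 for miR-133.

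Blood-cell and vessel miRNAs were far more abundant than the 6. The red blood cell list, with miR-16b, miR-25 and miR-106b as its 3 counted members of 7, held between 441599 and 552343 CPM (not TMM-scaled, as for the other lists) in CTRL and between 428804 and 515624 in OBESE libraries. The platelet list (miR-191, miR-199a-3p and miR-21, 3 of 5) held 21289 to 44285 CPM in CTRL and 26438 to 56659 CPM in OBESE libraries, and the vessel wall list (miR-143 and miR-221, 2 of 3) held 2010 to 4272 and 2282 to 4951. For lymphocytes miR-150 was the 1 of 3 counted, at 1746 to 12720 in CTRL and 3139 to 27084 in OBESE libraries. No counted member of these lists was at 0 in every library, and the defining miR-451, miR-486, miR-144, miR-223 and miR-126 had no named feature. Their part in the levels of the 6 was not tested.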

How the data were processed

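Counts per miRNA were made by the authors from plasma small RNA libraries (QIAseq miRNA kit with molecular identifiers, per the labels' protocols). The tools cutadapt 4.9, Bowtie 1.3.1 and DESeq2 1.42 are named, with no role for each, per the submitters' processing notes. The sources used here do not say whether the deposited counts are molecules or reads, which build was used or how reads with several matches were treated. The deposited table and the 18 library files differed in 0 values, and 0 columns were left unmapped. The 6 miRNAs, the lists and the naming rule (all 6 members, counted members of the lists, and the 3 features most correlated with each tested member) were chosen with earlier results of these data known.

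In R 4.3.3, edgeR 4.0.16 was run on all 18 libraries: filterByExpr (minimum count 10, minimum total 15) kept 168 features, TMM scaled them, and 1 quasi-likelihood model with 6 groups gave two-sided tests, adjusted by Benjamini-Hochberg over the 168 features at 0.05. SE is the absolute log2 difference over the root of the F statistic, an approximation. Log2 CPM used a prior count of 2. Exact tests enumerated 8000 assignments of diet within weeks, two-sided, the smallest possible p being 0.00025. They treat libraries of different weeks as independent. Intervals of counts are exact binomial (SciPy 1.17.1). The edgeR step was tested on simulated data. Alternatives were DESeq2 1.42.0 (all 364 features, its own filter), limma 3.58.1 (voom), other scaling and filters, replicate blocks, summed weeks and left-out libraries.

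Replicate numbers were checked for pairing by the correlation of deviations from group means over the 168 features. All 3 same-numbered pairs exceeded 0.1 for CTRL weeks 7 and 10 (0.319, 0.294 and 0.413) and for OBESE weeks 7 and 14 (0.318, 0.107 and 0.415), so these numbers were taken as pairs. So did the pairs of weeks 10 and 14 (0.363, 0.497 and 0.476 in CTRL, 0.692, 0.448 and 0.588 in OBESE), a comparison not made here. A pair was under 0.1 for CTRL weeks 7 and 14, OBESE weeks 7 and 10 and between the diets at each week. A number that marks a ewe would hold at all weeks of a diet, so this rule divides the comparisons inconsistently. Within a diet, same-numbered libraries of different weeks exceeded 0.1 in 16 of 18 pairs (median 0.347). Differently numbered libraries did so in 2 of 36 pairs within a diet (median -0.172). Between diets, differently numbered libraries did so in 1 of 18 pairs within a week and 6 of 36 across weeks. Same-numbered libraries of different diets, which cannot share a ewe, exceeded 0.1 in 4 of 9 pairs within a week (0.021 to 0.353). Across weeks 10 of 18 such pairs did (-0.065 to 0.324). A correlation over 0.1 thus does not show that a number marks a ewe, and what it marks was not tested.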

Additional observations from a re-analysis of the deposited data

Results flagged for a closer look

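With the 9 libraries of each diet examined together for each of the 6 miRNAs, 12 sets in all, 2 held a library far from the others by Dixon's criterion. Chance flags about 5% of sets if values are independent and normally distributed. That was not checked for these CPM values, and libraries of a set come from different weeks. miR-133 stood at 127.4 CPM in CTRL week 7 replicate 1, the next CTRL library being at 43.1 CPM (gap over range 0.674). In OBESE week 10 replicate 2 miR-133 stood at 41.34 CPM, the next OBESE library being at 23.7 CPM (gap over range 0.525).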

How the results depend on the processing

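Of 54 log2 fold changes of the 6 miRNAs (9 comparisons each), 0 passed under any of 715 alternative values, and 43 of these values changed sign. The cause was not tested. The number of features called averaged over weeks was 0, and became 3 with DESeq2 on all 364 features, 4 with edgeR on all 364 (no filter on low counts) and 0 to 2 with 1 library left out, while at week 14 it was 0 to 1 with 1 library left out; no member was among them. Fits with a replicate block changed no call of any comparison. Detection of miR-133 fell from 17 to 11 libraries at 10 counts, and that of miR-200b from 12 to 2 at 10 counts and to 5 at the smallest total. Without both libraries with low TMM factors, signs changed for miR-148a averaged over weeks (-0.058), at week 7 (-0.19) and in CTRL week 14 against 7 (-0.18), for miR-200c at week 7 (-0.10), and for miR-133 in CTRL week 14 against 7 (0.52) and the interaction (-0.69). Without TMM scaling they changed for miR-200a at week 7 (0.047) and miR-200c in CTRL week 10 against 7 (0.026). With limma-voom they changed for miR-194 at week 14 (-0.047), miR-148a in CTRL week 10 against 7 (0.075) and miR-200c in OBESE week 10 against 7 (-0.011). With the replicate number as a block, miR-194 at week 14 had -0.018 and miR-200a in OBESE week 10 against 7 had -0.028, beside -0.033 with the block of diet by number. With weeks summed miR-200b had -0.075, and the permutation difference was -0.40 CPM. With 1 library left out, miR-148a ranged from -0.058 to 0.38 averaged over weeks, -0.18 to 1.00 at week 7, -0.19 to 0.75 at week 10, -0.48 to 0.30 at week 14, -1.12 to 0.038 in CTRL week 10 against 7 and -0.24 to 0.88 in CTRL week 14 against 7. miR-194 ranged from -0.59 to 0.30 at week 14, -0.68 to 0.015 and -0.28 to 0.40 in CTRL weeks 10 and 14 against 7 and -0.31 to 0.012 in OBESE week 10 against 7. miR-200a ranged from -0.00373 to 0.61 at week 14 and from -0.10 to 0.33 and -0.23 to 0.37 in OBESE weeks 10 and 14 against 7. miR-200c ranged from -0.082 to 0.39 at week 7, -0.31 to 0.17 and -0.44 to 0.068 in CTRL weeks 10 and 14 against 7 and -0.00978 to 0.39 in OBESE week 10 against 7. miR-133 ranged from -2.14 to 0.20 in CTRL week 14 against 7, -0.28 to 1.26 and -0.86 to 0.49 in OBESE weeks 10 and 14 against 7 and -0.35 to 1.95 in the interaction. Where a group was left with 2 libraries the shared spread of the model was used. miR-200b had no value where the filter left it out, in the fits without 1 library among others. Depth limits miR-200b, miR-133 and miR-148a, whose mean counts give counting errors of 45.2%, 25.1% and 24.0%.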
